A study of Homo sapiens with 12 samples.

Results

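The genes described here encode the nuclear subunits of the oxidative phosphorylation (OXPHOS) machinery. They were taken by symbol from the probe sets that carry exactly 1 gene symbol: NDUFA, NDUFB, NDUFC, NDUFS and NDUFV for complex I, the SDH genes for complex II, UQCR for complex III, COX4I to COX8 for complex IV and ATP5 for complex V. After 3 rows that are not protein coding were left out, 86 of the 21214 probe sets with a gene symbol belonged to these families. They stand for 79 genes, each represented by its brightest probe set, out of 18417 genes with a row of their own: 34 genes of complex I, 3 of complex II, 7 of complex III, 17 of complex IV and 18 of complex V.

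Expression was measured in T47D-MTVL cells, a derivative of the T47D breast cancer line with 1 integrated copy of the MMTV promoter driving luciferase. Cells carried 1 of 2 siRNAs, siCHD8 against the chromatin remodeler CHD8 or the control siCt. Serum was withdrawn for 48 h, and R5020, a synthetic progestin, was then given at 10 nM for 6 h, or ethanol (EtOH) as its vehicle. The 4 conditions, siCHD8 R5020, siCHD8 EtOH, siCt R5020 and siCt EtOH, have 3 arrays each, labelled as biological replicates. A single siRNA sequence was used against CHD8, all conditions share the serum withdrawal, and what is measured is RNA of whole cultures, in which fewer cells of a type and less RNA per cell cannot be told apart.

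Complexes I and II take electrons from NADH and succinate and pass them to ubiquinone, complex III passes them to cytochrome c, and complex IV hands them to oxygen. Complexes I, III and IV pump protons across the inner mitochondrial membrane, and complex V, the ATP synthase, lets them flow back to make ATP. The complexes are built from subunits of both the nuclear and the mitochondrial genome, and their nuclear genes are known for stable expression in almost all cell types and for promoters with sites for NRF1, ETS-family factors such as GABP, and YY1. None of the 26 symbols checked for mitochondrially encoded subunits had a 1-symbol row, so these subunits are not analysed here, and neither are SDHB and UQCRFS1.

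CHD8 had log2 intensities of 4.77, 4.62 and 4.81 in siCHD8 R5020 and of 5.52, 5.24 and 5.29 in siCt R5020, without overlap. With EtOH it had 5.42, 5.11 and 5.04 in siCHD8 and 5.70, 5.71 and 5.91 in siCt, again without overlap. The differences were -0.62 ± 0.13 with R5020 and -0.58 ± 0.13 with EtOH (log2, SE, n = 3 each; limma adjusted p = 0.0627 and 0.0711), a level of 0.65 and 0.67 of the control that did not pass the threshold of 0.05. The paper also reports the depletion of CHD8 by RT-PCR and Western blotting, and similar effects of another CHD8 siRNA on progestin-induced genes. Those experiments are not analysed here. CHD8 also fell with R5020, to 0.73 of its EtOH level in siCHD8 (-0.46 ± 0.13, limma adjusted p = 0.0258) and to 0.75 in siCt (-0.42 ± 0.13, limma adjusted p = 0.0349). All 10 luminal breast markers on the list, ESR1, PGR, GATA3 and FOXA1 among them, were above the dim limit of 2.38 (the median mean level of the 12083 probe sets without a symbol). So were 4 of 6 fibroblast markers (COL1A1, COL1A2, COL3A1 and PDGFRB, but not DCN and LUM) and 2 of 5 blood and endothelial markers (CD14 and CDH5, but not PTPRC, CD3E and PECAM1). The luminal markers moved with the hormone: 6 of 10 fell in siCHD8 and 7 of 10 in siCt, against 5.43% and 6.00% of all probe sets tested (limma). The mean of the luminal markers lay between 8.84 and 8.92 in siCHD8 R5020, 9.38 and 9.49 in siCHD8 EtOH, 8.9 and 8.99 in siCt R5020, and 9.56 and 9.62 in siCt EtOH. The mean of the fibroblast markers lay between 3.13 and 3.2 in siCHD8 R5020, 3.22 and 3.38 in siCHD8 EtOH, 2.95 and 3.05 in siCt R5020, and 3.07 and 3.27 in siCt EtOH, and that of the blood and endothelial markers between 2.00 and 2.22 in all arrays. The part of these markers in the results below was not tested. Replicate 3 of siCt EtOH lay furthest from its condition for 50 of the 79 subunits (63.3%, against 43.7% of all probe sets tested), with a median distance of 0.24 for the subunits and 0.17 for all. Replicate 1 of siCHD8 EtOH lay furthest for 40.5% of the subunits and 41.2% of all, with a median distance of 0.17 for the subunits. Replicate 3 of siCt R5020 lay furthest for 49.4% of the subunits and 37.7% of all, with a median distance of 0.11 for the subunits. Counts of subunits are also given below without the 2 EtOH arrays, which lay furthest most often over all probe sets tested.

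Of the 79 subunits, 76 were above the dim limit. The exceptions were COX6B2, COX7B2 and COX8C, isoforms known from testis and other restricted tissues. A subunit was called when the limma test of R5020 against EtOH, or of siCHD8 against siCt, gave a Benjamini-Hochberg adjusted p under 0.05 over all 21214 probe sets.

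The first question was whether the progestin moved these genes. It moved few of them and none by as much as 1.5-fold. In siCHD8 cells 3 subunits rose (NDUFS8, COX6B1 and ATP5F1D) and 1 fell (NDUFA12), while 75 were not called. In siCt cells 1 rose (NDUFS1), 0 fell and 78 were not called. Over all probe sets tested, 6.04% rose and 5.43% fell in siCHD8, and 8.10% rose and 6.00% fell in siCt (limma). At an unadjusted p under 0.05, 10 subunits were higher and 5 lower in siCHD8 (15 of 79 together, against 22.4% of all probe sets), and 8 were higher and 2 lower in siCt (10 of 79 together, against 27.9%).

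The sizes of the changes were small throughout. The largest log2 difference of R5020 over EtOH in siCHD8 was that of COX5B (0.50 ± 0.18, SE), which varied too much between arrays to be called (limma adjusted p = 0.0882), and the lowest that of NDUFB3 (-0.47 ± 0.16, limma adjusted p = 0.0741). In siCt the range ran between NDUFA3 at -0.33 ± 0.14 (limma adjusted p = 0.134) and NDUFS1 at 0.51 ± 0.11. A fold over 1.5, without a test, was seen for 0 of 79 subunits in either siRNA, against 6.81% of all probe sets in siCHD8 and 7.93% in siCt. When the adjusted p also had to be under 0.01, 0 subunits passed in either, against 5.60% and 6.55% of all probe sets in siCHD8 and siCt (limma). The median log2 difference of the 79 was 0.05 in siCHD8 and -0.03 in siCt, against -0.02 and -0.05 for all probe sets. The 95% interval of the difference lay wholly within 1.5-fold in both directions for 63 of 79 subunits (79.7%) in siCHD8 and 67 of 79 (84.8%) in siCt, against 74.8% and 68.8% of all.

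**Figure D1:**
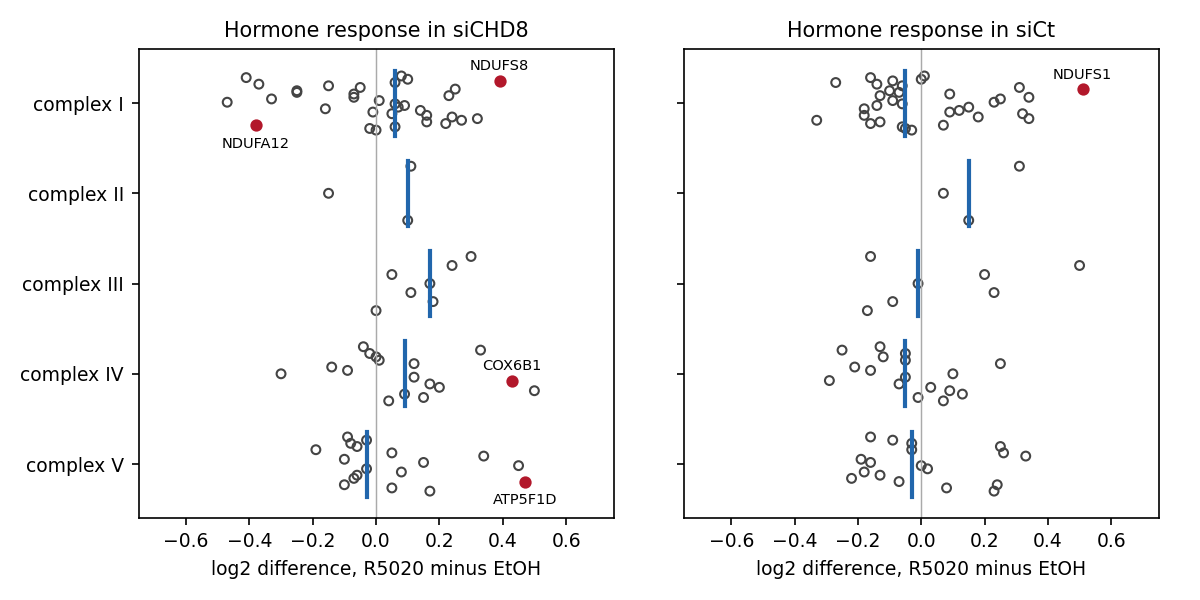
Log2 difference of R5020 minus EtOH for each of the 79 subunits, 1 point a gene, by complex, in siCHD8 (left) and siCt (right). Filled points with names are the genes called (4 in siCHD8, 1 in siCt), and the vertical blue bar is the median of the complex, between -0.03 and 0.17 in siCHD8 and between -0.05 and 0.15 in siCt.

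NDUFS1 (chromosome 2) encodes the largest core subunit of complex I, which carries iron-sulfur clusters in the arm that faces the matrix. In siCt its log2 intensity was 7.78, 7.76 and 7.91 with R5020 and 7.44, 7.34 and 7.13 with EtOH. Every R5020 array lay above every EtOH array, and the rise was 0.51 ± 0.11, or 1.43-fold (limma adjusted p = 0.00629). In siCHD8 it was 7.64, 7.70 and 7.81 with R5020 and 7.62, 7.37 and 7.42 with EtOH, a difference of 0.25 ± 0.11 in the same direction that was not called (limma adjusted p = 0.217), again without overlap. The difference between both responses was -0.27 ± 0.16 (95% interval -0.61 to 0.08, limma adjusted p = 0.607).

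NDUFS8 (chromosome 11), another iron-sulfur core subunit of complex I, had 7.25, 7.07 and 7.15 in siCHD8 R5020 and 6.56, 6.79 and 6.95 in siCHD8 EtOH. It rose by 0.39 ± 0.11, or 1.31-fold (limma adjusted p = 0.0339), with the EtOH arrays more spread than the R5020 arrays. In siCt it had 7.06, 6.97 and 6.91 with R5020 and 7.12, 7.06 and 7.03 with EtOH, so both conditions overlapped and lay at the level of the siCHD8 R5020 arrays or just below. The siCt difference was -0.09 ± 0.11 (limma adjusted p = 0.649).

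NDUFA12 (chromosome 12), an accessory subunit of the matrix arm of complex I, was the subunit that fell in siCHD8. It had 9.04, 8.95 and 8.75 with R5020 and 9.40, 9.30 and 9.17 with EtOH, a change of -0.38 ± 0.11, or 0.77-fold (limma adjusted p = 0.0311). In siCt it had 8.95, 8.97 and 9.10 with R5020 and 8.93, 8.94 and 8.94 with EtOH, a difference of 0.07 ± 0.11 (limma adjusted p = 0.731). The siCHD8 EtOH arrays were the high ones, and those of the other 3 conditions lay between 8.75 and 9.10.

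COX6B1 (chromosome 19), the common form of a small complex IV subunit on the intermembrane side where cytochrome c docks, had 8.58, 8.42 and 8.52 in siCHD8 R5020 and 8.16, 8.08 and 8.0 in siCHD8 EtOH. It rose by 0.43 ± 0.11, or 1.34-fold (limma adjusted p = 0.0146). In siCt the order was turned: 8.38, 8.25 and 8.24 with R5020 and 8.45, 8.57 and 8.72 with EtOH, a difference of -0.29 ± 0.11 that was not called (limma adjusted p = 0.0818). Neither pair of conditions overlapped. COX6B1 and NDUFA6, an accessory subunit of complex I, were the 2 of 79 subunits without overlap in all 4 pairwise comparisons of the study, the hormone in each siRNA and the siRNA with each treatment, which held for 1.82% of all probe sets.

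ATP5F1D (chromosome 19), the delta subunit of the central stalk of the ATP synthase, had 7.48, 7.56 and 7.45 in siCHD8 R5020 and 6.82, 6.93 and 7.35 in siCHD8 EtOH. The rise was 0.47 ± 0.13, or 1.38-fold (limma adjusted p = 0.0246), and siCHD8 EtOH replicate 3 lay close to the R5020 arrays. In siCt it had 7.41, 7.34 and 7.26 with R5020 and 7.34, 7.47 and 7.40 with EtOH, which overlapped.

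**Figure D2:**
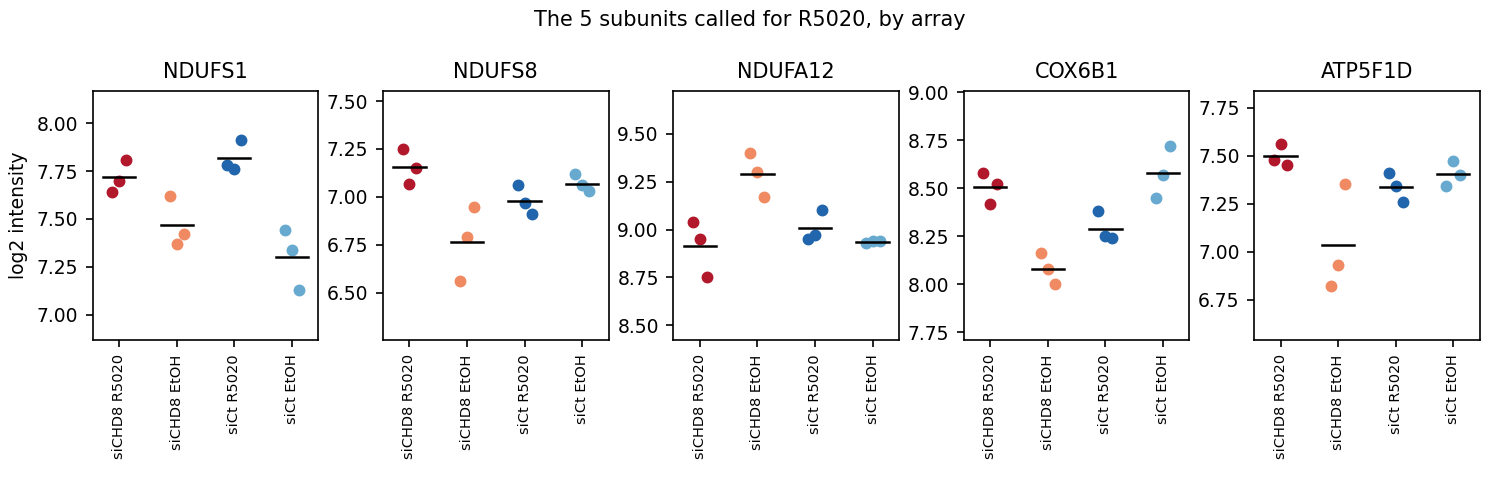
Log2 intensity of the 5 subunits called for R5020, 1 point an array (3 for each condition), with a line at the mean of the condition. All panels span the same range of log2 units. For NDUFS8, NDUFA12, COX6B1 and ATP5F1D the mean of siCHD8 EtOH stands furthest from the means of the remaining conditions. Its replicate 3 lies within the range of the siCt arrays for NDUFS8 (6.95) and ATP5F1D (7.35).

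NDUFS1 was called in siCt under all 23 alternative settings tried, and COX6B1 in siCHD8 under 21 of 23. NDUFA12 was called under 15, ATP5F1D under 14 and NDUFS8 under 13 (limma). Without siCt EtOH replicate 3 and siCHD8 EtOH replicate 1, 4 subunits were higher (NDUFAB1, UQCRQ, COX6B1 and ATP5ME) and 0 lower in siCHD8, against 7.50% and 5.19% of all probe sets, and in siCt NDUFS1 was higher and 0 were lower, against 7.84% and 5.63% (limma).

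Promoter sequence (RefSeq, GRCh38.p14, 250 bases before to 50 after the first listed start of a gene) was at hand for 67 of the 79 genes and was searched on both strands for 5 motifs. The NRF1 motif GCGCANGCG was found in 22 of the 67 (32.8%), against 8.05% of 27305 genes of all kinds and 11.0% of 15843 protein-coding genes. The ETS core CCGGAAG was in 28.4% of the subunit promoters, against 10.7% of all and 14.2% of the coding ones. The YY1 motif AANATGGC was in 29.9%, against 6.82% and 7.92%. The estrogen-related receptor motif TNAAGGTCA was in 2.99%, against 0.963% and 0.638%. The progesterone response element in its short form ACANNNTGT was in 2.99%, against 5.45% and 3.73%. A match in the letters is a description of the sequence and not a bound site. The 200 bases before the start are printed for the called genes that had an entry, and for SDHA, the flavoprotein of complex II, whose promoter held the NRF1 motif 4 times. Capitals mark motif matches, CTTCCGG being CCGGAAG read on the opposite strand.
NDUFS1, chr2:206159445-206159644, minus strand: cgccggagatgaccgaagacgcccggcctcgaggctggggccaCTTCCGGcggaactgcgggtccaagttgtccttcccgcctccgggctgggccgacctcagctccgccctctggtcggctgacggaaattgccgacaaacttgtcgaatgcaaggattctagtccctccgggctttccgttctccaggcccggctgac
NDUFS8, chr11:68030481-68030680, plus strand: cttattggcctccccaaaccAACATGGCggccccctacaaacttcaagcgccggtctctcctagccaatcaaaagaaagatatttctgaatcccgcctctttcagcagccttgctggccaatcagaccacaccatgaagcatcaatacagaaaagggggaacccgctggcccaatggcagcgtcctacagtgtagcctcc
NDUFA12, chr12:95003698-95003897, minus strand: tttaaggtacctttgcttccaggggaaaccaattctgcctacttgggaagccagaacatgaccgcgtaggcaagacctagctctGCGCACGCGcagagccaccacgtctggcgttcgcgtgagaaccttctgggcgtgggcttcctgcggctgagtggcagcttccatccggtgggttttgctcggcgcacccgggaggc
COX6B1, chr19:35648123-35648322, plus strand: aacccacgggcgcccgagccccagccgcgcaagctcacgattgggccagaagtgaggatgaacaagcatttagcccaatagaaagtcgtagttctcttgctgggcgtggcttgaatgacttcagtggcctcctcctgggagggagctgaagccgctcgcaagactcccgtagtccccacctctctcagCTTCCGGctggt
SDHA, chr5:218120-218319, plus strand: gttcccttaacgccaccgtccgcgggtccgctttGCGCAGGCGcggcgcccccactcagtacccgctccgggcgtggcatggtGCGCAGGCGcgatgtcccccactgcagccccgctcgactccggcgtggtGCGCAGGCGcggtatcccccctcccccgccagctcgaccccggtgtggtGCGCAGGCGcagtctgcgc
NDUFS1 and COX6B1 thus carry an ETS core, NDUFS8 a YY1 motif and NDUFA12 an NRF1 motif in the stretch shown. No motif was common to all 4 called genes in this stretch. In the part searched but not printed, NDUFS1 also had a YY1 match, 16 bases after the start. SDHA, for which the promoter holds 4 copies at near-equal spacing, had 9.14, 9.17 and 9.12 in siCHD8 R5020 and 9.10, 9.07 and 8.95 in siCHD8 EtOH, and 9.32, 9.20 and 9.16 in siCt R5020 and 9.18, 9.27 and 8.81 in siCt EtOH. Its difference was 0.10 ± 0.12 in siCHD8 and 0.15 ± 0.12 in siCt, with no call (limma adjusted p = 0.718 and 0.465).

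Taken by complex, the median hormone differences were within 0.17 log2 units of 0. In complex I the median was 0.06 in siCHD8 and -0.05 in siCt. Of its 6 core subunits, NDUFS8 was called in siCHD8 and NDUFS1 in siCt. The 13 NDUFA-type and NDUFAB1 accessory genes held the 1 subunit that fell (NDUFA12), and none of the 11 NDUFB or the 4 other accessory genes was called in either siRNA. NDUFV2, the core subunit beside the NADH site, had -0.41 ± 0.15 in siCHD8 without a call (limma adjusted p = 0.103), and its second probe set gave the same -0.41. NDUFV2 has a pair of probe sets of near-equal level, of which the brighter may read a copy of the gene elsewhere in the genome.

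Complex II was covered by SDHA and by the membrane anchors SDHC and SDHD. SDHD had 8.28, 8.16 and 8.43 in siCHD8 R5020 and 8.21, 8.13 and 8.20 in siCHD8 EtOH, which overlapped. In siCt it had 8.41, 8.39 and 8.26 with R5020 and 8.01, 8.23 and 7.91 with EtOH, which did not, and the difference was 0.31 ± 0.11 (limma adjusted p = 0.0871). The dimmer of the 2 SDHD probe sets gave 0.02 ± 0.11 in siCt, so the probe sets of this gene disagree. SDHC likewise had 0.07 ± 0.10 by its brighter and 0.32 ± 0.20 by its dimmer probe set in siCt. The median of the complex was 0.10 in siCHD8 and 0.15 in siCt.

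Complex III had the highest median of the 5 in siCHD8, 0.17, with 6 of 7 genes above 0, and a median of -0.01 in siCt. UQCRH, the hinge protein next to cytochrome c1, had 5.03, 5.41 and 5.46 in siCHD8 R5020 and 5.37, 4.70 and 5.12 in siCHD8 EtOH. In siCt it had 5.22, 5.08 and 5.23 with R5020 and 4.45, 4.81 and 4.76 with EtOH, without overlap, and a difference of 0.50 ± 0.16 just outside the call (limma adjusted p = 0.0557). UQCRQ, a small subunit of the ubiquinone side, had 7.43, 7.44 and 7.45 in siCHD8 R5020 and 7.27, 7.03 and 7.11 in siCHD8 EtOH, a difference of 0.30 ± 0.11 (limma adjusted p = 0.101). UQCR10, another small subunit, was the lowest of complex III, at 0.00 ± 0.11 in siCHD8 and -0.17 ± 0.11 in siCt (limma adjusted p = 1 and 0.341).

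In complex IV the median was 0.09 in siCHD8 and -0.05 in siCt, with 12 of 17 and 6 of 17 genes above 0. Over all probe sets tested, 46% and 41.2% were above 0. The 17 include 6 tissue-restricted isoforms, 3 of them below the dim limit, of which 4 were above 0 in siCHD8 and 0 in siCt. Without the isoforms 8 of 11 and 6 of 11 genes were above 0, and the medians were 0.09 and 0.03. COX8A, a small subunit in the membrane, had 9.54, 9.32 and 9.43 in siCHD8 R5020 and 8.91, 9.03 and 9.36 in siCHD8 EtOH, with a difference of 0.33 ± 0.13 (limma adjusted p = 0.150), and it had -0.25 ± 0.13 in siCt (limma adjusted p = 0.245). The core structural partners COX4I1 and COX5A had differences of 0.04 and 0.09 in siCHD8 and of 0.07 and 0.13 in siCt. COX6C, a small membrane subunit, was the lowest of complex IV in siCHD8 (-0.30 ± 0.15, limma adjusted p = 0.269) and had 0.10 in siCt. COX7A2L, a factor that joins complexes into supercomplexes, had 0.12 in siCHD8 and 0.25 in siCt.

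The 6 tissue-restricted isoforms of complex IV were low or dim and none was called. COX6A2, the heart and muscle isoform, averaged 4.94 over the 12 arrays, COX4I2, the lung isoform, 3.77 and COX7A1, another muscle isoform, 3.22. COX6B2, COX7B2 and COX8C, at 1.65, 1.48 and 1.70, were below the dim limit, and no difference between conditions is read from them. The hormone difference of their common partners COX6A1, COX7A2 and COX7B was 0.20, -0.14 and 0.01 in siCHD8 and 0.03, -0.21 and -0.05 in siCt, none of them called. The partners of COX6B2, COX8C and COX4I2 are COX6B1, which was called in siCHD8, COX8A and COX4I1, with the values given above.

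Complex V had a median of -0.03 in both siRNAs. Within the catalytic F1 part, ATP5F1A (alpha) had 0.17 in siCHD8 and 0.23 in siCt, ATP5F1B (beta) 0.05 and 0.08, and ATP5F1C (gamma) -0.10 and 0.24, all without a call. The 3 c-ring genes ATP5MC1, ATP5MC2 and ATP5MC3 lay between -0.06 and 0.08 in siCHD8 and between -0.18 and 0.02 in siCt. ATP5MK, a small membrane subunit with a similar doubt about its brighter probe set as NDUFV2, was the lowest of complex V in siCHD8 (-0.19 ± 0.14, limma adjusted p = 0.471). ATP5MGL, low at a mean of 2.90 but above the dim limit, was the highest in siCt (0.33 ± 0.13, limma adjusted p = 0.0961). The 4 peripheral stalk genes (ATP5PB, ATP5PD, ATP5PF and ATP5PO) lay between -0.09 and -0.03 in siCHD8 and between -0.16 and 0.25 in siCt. ATP5IF1, the inhibitor that blocks the enzyme from running backwards, had -0.07 in siCHD8 and -0.22 ± 0.12 in siCt (limma adjusted p = 0.236).

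**Figure D3:**
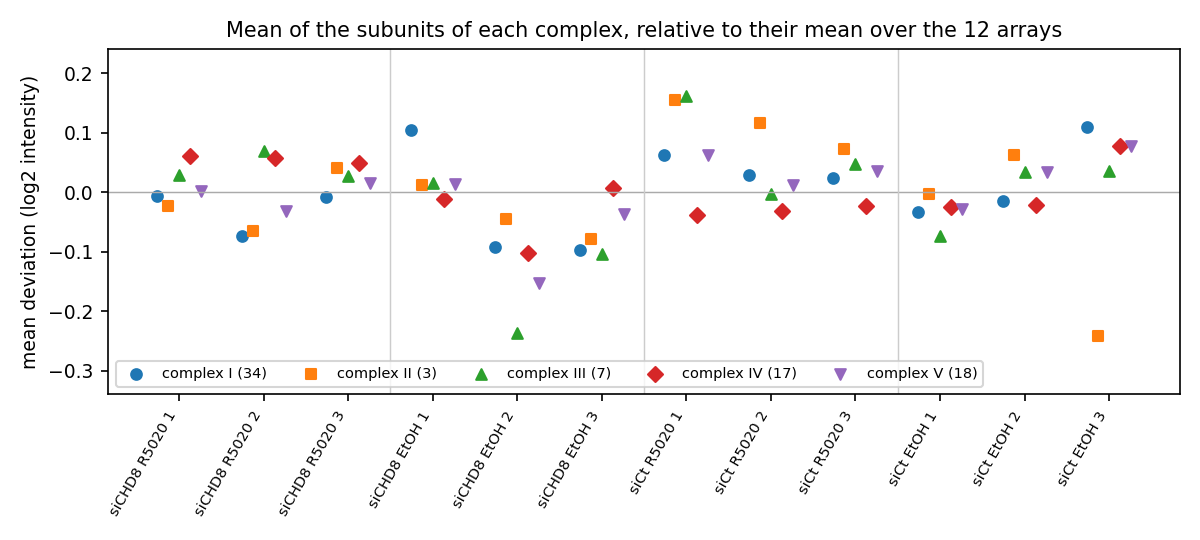
Mean log2 intensity of the subunits of each complex in each array, given as the deviation from their mean over the 12 arrays (number of genes in brackets). Most points lie within 0.12 of 0, with complex III in siCHD8 EtOH replicate 2 at -0.237 and complex II in siCt EtOH replicate 3 at -0.242 furthest away.

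The genes around the OXPHOS complexes were set beside the subunits. Of 44 measured assembly factors, proteins that put the complexes together without staying in them, 2 rose and 1 fell in siCHD8, and 10 rose and 0 fell in siCt (limma), with median log2 differences of 0.06 and 0.10 against -0.02 and -0.05 for all probe sets. The shares of all probe sets called, 6.04% higher and 5.43% lower in siCHD8 and 8.10% higher and 6.00% lower in siCt, hold for each list in this and the following paragraphs. TMEM70, which helps to assemble complexes V and I, rose by 0.51 ± 0.11 in siCHD8 and by 1.02 ± 0.11 in siCt (limma adjusted p = 0.00728 and 1.6e-05), which is 1.43-fold and 2.03-fold. COX20, a chaperone for a mitochondrially encoded complex IV subunit, rose by 0.48 ± 0.13 in siCHD8 and 0.66 ± 0.13 in siCt (limma adjusted p = 0.027 and 0.00297). NDUFAF5 and NDUFAF1, both factors for complex I, rose in siCt by 0.69 ± 0.12 and 0.79 ± 0.20 (limma adjusted p = 0.00117 and 0.0151). COA8 and NDUFAF2, factors for complexes IV and I, rose in siCt by 0.47 ± 0.11 and 0.44 ± 0.11 (limma adjusted p = 0.0077 and 0.0131). COA6, a copper-handling factor of complex IV, fell in siCHD8 by 0.51 ± 0.15 on the log2 scale (limma adjusted p = 0.0387). Without the 2 EtOH arrays named above, 3 of 44 rose in siCHD8 and 6 in siCt. Leaving out siCt EtOH replicate 1 left 6 in siCt, and leaving out siCt R5020 replicate 1 or 3 left 5 each.

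On a list of supercomplex factors and hypoxic modifiers 15 genes were measured, of which 4 rose in siCHD8 and 5 in siCt, and 0 fell in either (limma). PDK4 and PDK1, kinases that switch off pyruvate dehydrogenase, rose by 2.29 ± 0.14 and 0.77 ± 0.11 in siCHD8 and by 2.02 ± 0.14 and 0.90 ± 0.11 in siCt. For PDK4 this is 4.90-fold and 4.07-fold (limma adjusted p = 4.47e-08 and 1.36e-07). UCP2, a carrier of the inner membrane, rose by 0.59 ± 0.10 in siCHD8 and 0.42 ± 0.10 in siCt, and LONP1, a matrix protease, by 0.65 ± 0.14 and 0.57 ± 0.14 in the same order. VDAC1, the outer membrane channel, rose in siCt by 0.50 ± 0.11 (limma adjusted p = 0.00823).

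Of 22 regulators of mitochondrial genes, 3 rose and 1 fell in siCHD8 and 4 rose and 1 fell in siCt (limma). HIF1A, the oxygen-regulated factor, rose by 0.75 ± 0.12 in siCHD8 and 0.92 ± 0.12 in siCt. TFB2M, a mitochondrial transcription factor, rose by 0.36 ± 0.11 and 0.59 ± 0.11, and MYC by 0.39 ± 0.11 in both. GABPB1, a subunit of the ETS-family factor GABP, rose in siCt by 0.73 ± 0.16 (limma adjusted p = 0.00536) and had 0.40 ± 0.16 in siCHD8 (limma adjusted p = 0.133). PPARGC1A, a coactivator known to raise OXPHOS genes, had -0.48 ± 0.21 in siCHD8 (limma adjusted p = 0.183) and fell to 0.53-fold in siCt (-0.92 ± 0.21, limma adjusted p = 0.0073). SP1 fell in siCHD8 (-0.49 ± 0.11, limma adjusted p = 0.0101).

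Of 11 measured TCA cycle genes, 0 were called in siCHD8 and 1 rose in siCt, citrate synthase CS by 0.33 ± 0.10 (limma adjusted p = 0.0386). Of 24 electron carriers and ubiquinone donors, 1 rose in siCHD8, and 1 rose and 1 fell in siCt. SQOR, which feeds electrons from sulfide to ubiquinone, rose by 0.72 ± 0.14 in siCHD8 and 1.02 ± 0.14 in siCt (limma adjusted p = 0.00289 and 0.000113), and COQ7, an enzyme of ubiquinone synthesis, fell in siCt (-0.49 ± 0.15, limma adjusted p = 0.0412). The shares of these lists are a description and were not tested against each other.

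**Figure D4:**
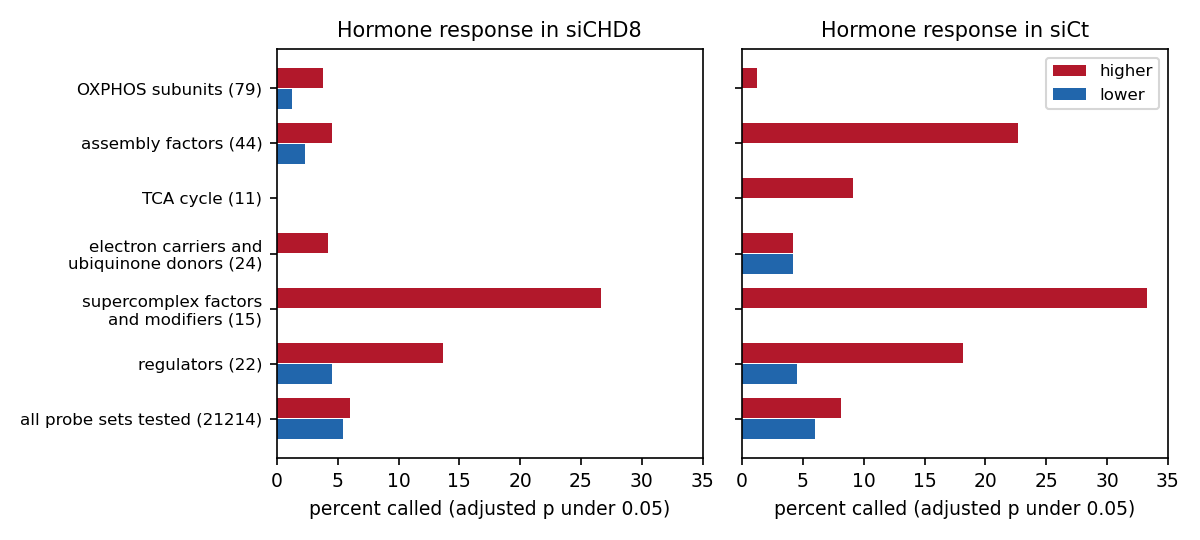
Percent of the measured genes of each list called higher or lower with R5020 (limma adjusted p under 0.05), in siCHD8 (left) and siCt (right), with the number of genes in brackets and all probe sets tested at the bottom. In siCt 1 of 79 subunits and 10 of 44 assembly factors rose.

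The next question was whether the response to R5020 differed between siCHD8 and siCt cells. The interaction called 0 of 79 subunits and 0% of all 21214 probe sets in either direction (limma). At an unadjusted p under 0.05 it had 10 subunits, 6 higher and 4 lower, against 9.56% of all probe sets. The highest was COX6B1 (0.72 ± 0.15, 95% interval 0.40 to 1.04, limma adjusted p = 0.49), and the lowest was NDUFB3 (-0.70 ± 0.22, limma adjusted p = 0.49), an accessory subunit of the membrane arm of complex I. The median interaction was 0.03 over the subunits and 0.01 over all probe sets, and 43 of 79 (54.4%) had a 95% interval within 1.5-fold, against 50.3% of all, so a difference of that size between responses could not be bounded for the rest.

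In 3 subunits, COX6B1, NDUFA12 and NDUFB5, every R5020 array lay on 1 side of every EtOH array in siCHD8 and on the other side in siCt. The same was seen for 0.707% of all probe sets. NDUFB5, a membrane-arm accessory subunit of complex I, had 10.30, 10.24 and 10.16 in siCHD8 R5020 and 10.75, 10.40 and 10.53 in siCHD8 EtOH. In siCt it had 10.30, 10.23 and 10.47 with R5020 and 10.23, 10.21 and 9.81 with EtOH, of which replicate 3 was the low one. Its hormone differences were -0.33 ± 0.13 in siCHD8 and 0.25 ± 0.13 in siCt (limma adjusted p = 0.147 and 0.235).

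The knockdown itself was read with the hormone and without it. These comparisons use the same arrays as the hormone responses above, so a low or high EtOH array enters both. With R5020, 0 of 79 subunits were called higher in siCHD8 than in siCt and 0 lower, against 0.0330% and 0.156% of all probe sets. With EtOH the counts were again 0 and 0, against 0.113% and 0.179% (limma). At an unadjusted p under 0.05 there were 6 subunits with R5020 (2 higher and 4 lower, 13.9% of all probe sets) and 16 with EtOH (4 higher and 12 lower, 12.1% of all).

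The median knockdown difference was -0.05 with R5020 and -0.07 with EtOH, against 0.01 and -0.01 for all probe sets. With R5020, 29 of 79 subunits (36.7%) had a difference above 0, against 52.2% of all probe sets, and with EtOH 30 of 79 (38.0%), against 48.8%. With R5020, 25 of 34 complex I genes, 5 of 17 complex IV genes and 13 of 18 complex V genes were below 0, and with EtOH 22 of 34, 10 of 17 and 11 of 18. No test between complexes was made. The 12 complex IV genes above 0 with R5020 include the 6 tissue-restricted isoforms, 3 of them below the dim limit, and without the isoforms the complex IV median was 0.01. A 95% interval within 1.5-fold was found for 71 of 79 (89.9%) with R5020 and for 61 of 79 (77.2%) with EtOH, against 81.2% and 83.8% of all.

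**Figure D5:**
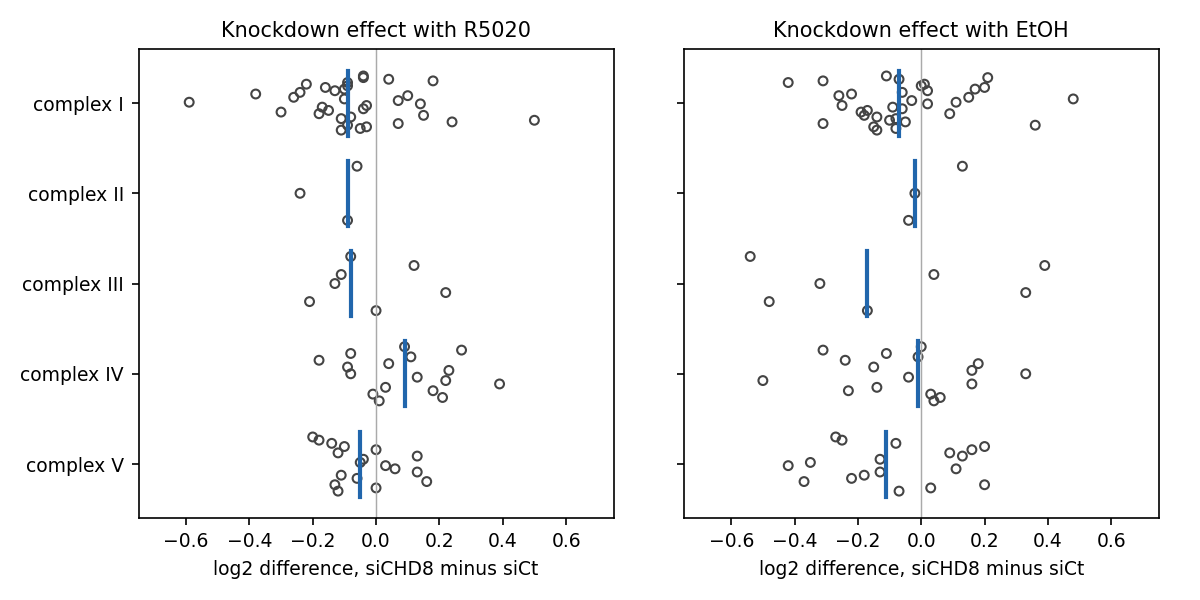
Log2 difference of siCHD8 minus siCt for each of the 79 subunits, 1 point a gene, by complex, with R5020 (left) and with EtOH (right). The blue bar is the median of the complex, between -0.09 and 0.09 with R5020 and between -0.17 and -0.01 with EtOH, and no gene was called.

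The widest single differences lay in complexes I, III and IV. In complex V the widest was that of ATP5ME with EtOH (-0.42 ± 0.20, limma adjusted p = 0.416). With R5020, NDUFB3 had 4.62, 4.32 and 4.60 in siCHD8 and 5.16, 4.88 and 5.28 in siCt, without overlap, a difference of -0.59 ± 0.16 or 0.67-fold (limma adjusted p = 0.134). NDUFA3, an accessory subunit of complex I, had 8.18, 8.17 and 8.15 in siCHD8 and 7.75, 7.52 and 7.73 in siCt, a difference of 0.50 ± 0.14 (limma adjusted p = 0.137). NDUFB8, a membrane-arm subunit often used as a protein marker of complex I, had 8.46, 8.28 and 8.45 in siCHD8 and 8.79, 8.86 and 8.67 in siCt (-0.38 ± 0.11, limma adjusted p = 0.148). UQCRB was the highest of complex III (0.22 ± 0.20, limma adjusted p = 0.653) and COX6A2 the highest of complex IV (0.39 ± 0.13, limma adjusted p = 0.217).

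With EtOH, UQCRQ came closest to a call. It had 7.27, 7.03 and 7.11 in siCHD8 and 7.51, 7.69 and 7.85 in siCt, a difference of -0.54 ± 0.11 or 0.69-fold (limma adjusted p = 0.0556). COX6B1 followed with -0.50 ± 0.11 (limma adjusted p = 0.0677), and NDUFB5 was the highest at 0.48 ± 0.13 (limma adjusted p = 0.145). UQCR11, a small complex III subunit, had 5.73, 5.37 and 5.23 in siCHD8 and 5.83, 5.75 and 6.18 in siCt (-0.48 ± 0.14, limma adjusted p = 0.180). NDUFS7, an iron-sulfur core subunit, was the lowest of complex I (-0.42 ± 0.15, limma adjusted p = 0.265) and COX6C the highest of complex IV (0.33 ± 0.15, limma adjusted p = 0.407). For COX6B1 and NDUFS8 the arrays did not overlap with either treatment and the sign was opposite, which held for 0.764% of all probe sets. COX6B1 had 0.22 ± 0.11 with R5020 and -0.50 ± 0.11 with EtOH, and NDUFS8 had 0.18 ± 0.11 and -0.31 ± 0.11 in the same order, none of them called.

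Among the assembly factors the knockdown called 0 of 44 with either treatment (limma). With R5020, 37 of the 44 were below 0 with a median of -0.18, and with EtOH 27 were below 0 with a median of -0.02, while 52.2% and 48.8% of all probe sets were above 0, with medians of 0.01 and -0.01. At an unadjusted p under 0.05, 8 of 44 passed with R5020 (1 higher and 7 lower, against 13.9% of all probe sets in either direction) and 7 with EtOH (2 higher and 5 lower, against 12.1%). TMEM70 had -0.33 ± 0.11 with R5020 and 0.17 ± 0.11 with EtOH (limma adjusted p = 0.216 and 0.591).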

How the data were processed

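Total RNA of 12 cultures was labelled and hybridised to Human Gene 1.0 ST arrays (Affymetrix). The table deposited holds 1 log2 intensity for each probe set and array, which the authors extracted with Affymetrix Command Console, normalised by RMA (background correction, quantile normalisation, probe summary) and processed with oneChannelGUI, in versions not given in the sources used here. RMA equalises the distributions of the arrays, so a shift of all genes together cannot be seen, and array medians lay between 4.52 and 4.62. Arrays have no read depth; 3 arrays a condition limit the precision.

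No further normalisation was applied. Of 33297 probe sets, 19460 carry 1 gene symbol in the platform annotation, 1754 several and 12083 none; the 21214 with a symbol were tested. A linear model with 1 mean per condition (8 residual degrees of freedom) was fitted by lmFit, contrasts.fit and eBayes (limma 3.58.1, R 4.3.3; two-sided), with Benjamini-Hochberg adjustment over the 21214 and calls at an adjusted p under 0.05. Folds are linear, 2 to the log2 difference. The code was tested on simulated data first. Figures and motif searches used Python 3.11.15, pandas 2.3.3 and matplotlib 3.10.9.

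Genes named are those called, the highest and lowest of each complex in each comparison, the tissue-restricted isoforms with their partners, the SDH genes, and called genes of the other lists, at most 6 a list by p; further genes in the text (among them SDHA's promoter, UQCR11, NDUFB8, NDUFV2, COX8A and ATP5IF1) were added after their values were seen. Members and lists were chosen with earlier results of these data known, and the grouping of subunits by role and the omission of 2 arrays were chosen after seeing the data. For 7 genes with several probe sets the brightest was used; NDUFB4's 2 probe sets hold identical values. Probe sets of subunits with near-identical copies elsewhere in the genome may pick up both, and SDHC, SDHD, NDUFV2 and ATP5MK are uncertain for this reason. Replicates are labelled biological; the p-values measure the spread between them. The study's chromatin experiments are not analysed here.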

Additional observations from a re-analysis of the deposited data

Results flagged for a closer look

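COX6B1, NDUFA12 and NDUFB5 drew attention because R5020 moved all siCHD8 arrays 1 way and all siCt arrays the other. The difference between the responses was 0.72 for COX6B1, -0.45 for NDUFA12 and -0.58 for NDUFB5 on the log2 scale, and the interaction test called none of them (limma adjusted p = 0.49 for each). For NDUFB5, siCt EtOH replicate 3 at 9.81 widened the gap in siCt, where the next EtOH array was at 10.21.

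NDUFS8 and COX6B1 drew attention because the knockdown difference with R5020 was opposite to that with EtOH in all arrays. The difference between both knockdown effects is the same quantity as the interaction, 0.48 for NDUFS8 and 0.72 for COX6B1 (limma adjusted p = 0.49 for each). In NDUFS8 the R5020 arrays were separated by little, 7.07 as the lowest in siCHD8 and 7.06 as the highest in siCt. With 3 arrays a condition no outlier test was applied to single subunits. The 2 EtOH arrays left out as an alternative lay furthest from their condition most often over all probe sets tested (43.7% and 41.2%). For the subunits alone, siCt R5020 replicate 3 lay furthest more often (49.4%) than siCHD8 EtOH replicate 1 (40.5%).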

How the results depend on the processing

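NDUFS1 kept its call in siCt under all 23 alternatives at the threshold of 0.05 (limma adjusted p between 0.00181 and 0.0359), and no called subunit changed direction under any. The stricter threshold, at which no subunit was called, is not counted among these 23. In siCHD8, COX6B1 was lost under 2, without siCHD8 R5020 replicate 1 (0.39, limma adjusted p = 0.0709) and without replicate 3 (0.42, limma adjusted p = 0.0528). NDUFS8, ATP5F1D and NDUFA12 were lost under 10, 9 and 8, with limma adjusted p up to 0.14, 0.0955 and 0.164. For all 3 these include a fit of all 33297 probe sets, with or without a symbol, and one of the compared conditions alone. They also include the 2 arrays left out together, and siCHD8 EtOH replicate 1 or 2 or siCHD8 R5020 replicate 2 or 3 left out. Quantile normalisation also lost NDUFS8 and ATP5F1D, median centring NDUFA12, and the omission of siCHD8 R5020 replicate 1 NDUFS8 and ATP5F1D.

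Subunits higher with R5020 in siCHD8 (3) were 1 under quantile normalisation and with all 33297 probe sets, 5 with array weights, 0 at an adjusted p under 0.01 with a fold over 1.5, and 0 to 6 with 1 array left out. Those lower (1) were 0 under median centring, all 33297 probe sets, the compared conditions alone, the stricter threshold and without both arrays, 2 under quantile normalisation, and 0 to 2 with 1 array left out. In siCt, those higher (1) were 3 under median centring, quantile normalisation and trended robust variance, 2 with dim probe sets left out, 1 probe set per gene, array weights and the compared conditions alone, 0 at the stricter threshold, and 1 to 4 with 1 array left out; those lower (0) were 1 under quantile normalisation and trended robust variance (COX6B1 in both). For the knockdown with R5020, 1 was higher with array weights and with the compared conditions alone (NDUFA3 in both) and 2 lower with array weights (NDUFB3, NDUFB8). With EtOH, 1 was lower under quantile normalisation and with dim probe sets left out (UQCRQ in both), and 2 with trended robust variance (UQCRQ, COX6B1). The interaction called 0 throughout. The cause of these moves was not tested.

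Median differences moved by more than the spread between replicates as follows. Over all subunits in siCt, the median was 0.03 under median centring and -0.09 under quantile normalisation. For the hormone in siCHD8, complex IV was 0.03 under quantile normalisation and complex V 0.05 without both arrays. In siCt, complex I was 0.03 with array weights and without both arrays, complex II 0.01 without both arrays, complex III 0.07 with array weights, complex IV 0.01 under median centring and 0.03 without the isoforms, and complex V 0.03 under median centring and -0.12 under quantile normalisation. For the interaction, complex II was -0.05 with the mean of all rows and complex III 0.08 with array weights. For the knockdown with R5020, complex IV was 0.04 with dim probe sets left out and 0.01 without the isoforms; with EtOH, complex II was -0.11 without both arrays and complex IV -0.14 without the isoforms.

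With 1 array left out, the medians that moved ranged as follows. In siCHD8, complex III lay between 0.05 and 0.21, complex IV between 0.04 and 0.11 and complex V between -0.05 and 0.05. In siCt, complex I lay between -0.08 and 0.03, complex II between 0.01 and 0.24, complex III between -0.08 and 0.08, complex IV between -0.07 and -0.01 and complex V between -0.12 and 0.01. For the interaction, complex I lay between -0.08 and 0.08, complex III between 0.06 and 0.22 and complex IV between 0.05 and 0.16. For the knockdown with R5020, complex IV lay between 0.04 and 0.11; with EtOH, complex III lay between -0.28 and -0.12, complex IV between -0.03 and 0.04 and complex V between -0.14 and -0.02.

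No pairing of the arrays by replicate number was seen. Over 18 pairs of the same number the correlation of deviations lay between -0.247 and 0.196, and between -0.225 and 0.254 for pairs of other numbers. Of 12 arrays, 5 correlated best with their own number. The labels do not say whether cultures of the same number were prepared together, and 3 arrays a condition cannot settle this. With the replicate number as a block, the calls were 1 subunit in siCt, and 2 higher and 1 lower in siCHD8, where NDUFS8 was lost (0.39, limma adjusted p = 0.0596). Counting NDUFA4 in complex IV was not run, since NDUFA4 is not analysed here. The assembly factors higher in siCt (10) lay between 3 and 11 over 23 alternatives, a set that here includes the stricter threshold. At that threshold there were 3, and with all 33297 probe sets fitted 6.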

Other observations

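In the peripheral stalk of the ATP synthase, which holds the catalytic head in place, 4 of 4 genes were below 0 under the knockdown with R5020, with a median of -0.16, and 3 of 4 with EtOH, with a median of -0.17. ATP5PO, at the tip of the stalk, had -0.20 with R5020 and -0.27 with EtOH. Of the 13 NDUFA-type and NDUFAB1 accessory genes of complex I, 9 were below 0 with R5020 and 11 with EtOH (medians -0.08 and -0.14). None of these genes was called (limma), the role groups were formed after seeing the data, and no test over the groups was made.

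COX6B1 and NDUFA6 were separated without overlap in each of the 4 pairwise comparisons, as were 1.82% of all probe sets. For COX6B1, the lowest mean was that of siCHD8 EtOH, the highest that of siCt EtOH, and the means of siCHD8 R5020 and siCt R5020, 8.51 and 8.29, lay between those of siCHD8 EtOH (8.08) and siCt EtOH (8.58).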
